A study of Mus musculus with 4 samples.

Results

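The integrated stress response and the unfolded protein response were followed in mouse sarcomas through 36 genes, chosen by name. Rows with these symbols were taken from the deposited tables of malignant and of non-malignant cells, and 36 of 36 symbols were found in both, among 16121 genes that the tables share. The list holds 8 transcription factors and their feedback genes, 6 enzymes of amino acid and one-carbon synthesis, 2 amino acid transporter subunits and 5 tRNA synthetases. It further holds 5 genes of growth braking, redox and lipid uptake, 2 secreted factors and 8 genes of endoplasmic reticulum (ER) folding and quality control. A second list of 68 other genes of the same pathways, present in both tables, is given by counts.

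Cells sense amino acid shortage, haem deficiency, double-stranded RNA and misfolded ER protein through kinases that phosphorylate the translation factor eIF2alpha. General protein synthesis then slows, while the mRNA of the transcription factor ATF4 is translated better, and ATF4 with its partners activates genes for amino acid synthesis, amino acid uptake and tRNA charging. ER stress has further sensors, IRE1, which splices the Xbp1 mRNA, and ATF6, and these act on chaperone genes such as Hspa5. In tumors and in growing cells the serine and one-carbon enzymes of this programme also serve biosynthesis. ATF4 and XBP1 are controlled after transcription, so the mRNA levels of Atf4 and Xbp1 are not a readout of their activity.

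Tumors of the hind limb were profiled by single-cell RNA sequencing on a droplet platform with a version 3 kit for 3′ ends, which counts RNA molecules by unique molecular identifiers (UMIs). All mice were of the background strain 129/SvJae and the tumor model carried Trp53flox/flox. The Cre driver and the origin of the tumor cells are not given in the sources used here. The vehicle group (2 mice) received PBS and the digoxin group (2 mice) received digoxin at 2 mg/kg, prepared in DMSO and diluted in PBS, by intraperitoneal injection every 24 h, and tumors were collected after dose 4. Digoxin is a cardiac glycoside that inhibits the sodium-potassium pump. Cell types are those of the deposited annotation, and ages and sexes of the mice are not given in the sources used here.

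Each mouse gave 3976 to 6269 malignant cells, at a median of 46799 to 57658 UMIs per cell, and 3014 to 3344 non-malignant cells, at a median of 15837 to 16671 UMIs. Among 31498 cell barcodes, 113 (0.359%) occurred in 2 or more libraries, and no cell was in both tables. Vehicle replicate 2 stood apart: in its non-malignant cells Xist averaged 6.09 CPM (UMIs of the gene after scaling every cell to the same total), against 722, 817 and 788 in vehicle replicate 1 and digoxin replicates 1 and 2, and Ddx3y averaged 86.0 CPM against 1.77, 1.72 and 2.14. Xist is expressed from the inactive X chromosome of females and Ddx3y from the Y chromosome, so the host of vehicle replicate 2 read as male and the other 3 as female. What leaving out vehicle replicate 2 gave is reported below for some of the named genes and not for all. Malignant cells of all 4 mice carried Ddx3y, at 43.1 to 49.3 CPM. The names of 2 types went against their markers. Cells deposited as Microglia carried Siglech at 2449 CPM and Ccr9 at 591 CPM, markers of plasmacytoid dendritic cells, with Sall1 at 0. Cells deposited as Epithelial carried the endothelial markers Cdh5 at 888 CPM and Pecam1 at 841 CPM, and Epcam at 0.122 CPM. Both are called here by their deposited names. Malignant cells held macrophage marker RNA at a low level, with C1qa at 86.2 CPM against 3782 CPM in macrophages.

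Promoters were searched for elements of these pathways as a planned description, apart from the co-variation described below. The genes were chosen by name for these pathways, so shares above those of all genes cannot count as support. RefSeq promoter sequence of the build GRCm38.p6, from 250 bases before to 50 bases after the gene start, was found for 32 of the 36 genes, and the 4 without an entry were Slc7a5, Wars, Nars and Eif4ebp1. Only the 250 bases before the start were searched, and this is the window meant below. The C/EBP-ATF response element, to which ATF4 binds with C/EBP partners, was searched as TGATGNAA on both strands. It was present in 7 of the 32 genes, against 3.91% of 27025 genes and 3.45% of 32851 promoters, searched over the same 250 bases. The ER stress response element was searched as CCAAT and CCACG with 9 bases between them, on both strands. It was present in 3 of the 32 genes (Hspa5, Hsp90b1 and Calr), against 0.130% of genes and 0.113% of promoters. The cAMP-type element TGACGTG was present in 1 of the 32 (Hspa5), against 1.85% of genes and 1.65% of promoters. These shares describe letters in a window and not bound sites. The stretches below run 5′ to 3′ on the strand of the gene, with the motif in capitals.

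The 7 genes that held the C/EBP-ATF element are shown because they come from 5 of the 7 roles of the list: an enzyme (Asns), a stress factor (Nupr1), synthetases (Aars and Gars), redox and lipid uptake genes (Chac1 and Vldlr) and an ER quality control gene (Herpud1). In their stretches, TTGCATCA and TTTCATCA are the element read from the opposite strand. The Asns stretch is chr6:7693210-7693252 on the minus strand, Nupr1 chr7:126625553-126625600 minus, Aars chr8:111033710-111033757 plus, Gars chr6:55037951-55037998 plus, Chac1 chr2:119351029-119351076 plus, Vldlr chr19:27216800-27216847 plus and Herpud1 chr8:94386297-94386344 plus.
Asns: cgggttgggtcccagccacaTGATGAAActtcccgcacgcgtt
Nupr1: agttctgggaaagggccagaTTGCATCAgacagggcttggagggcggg
Aars: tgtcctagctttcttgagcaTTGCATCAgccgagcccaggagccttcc
Gars: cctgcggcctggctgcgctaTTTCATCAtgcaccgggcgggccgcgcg
Chac1: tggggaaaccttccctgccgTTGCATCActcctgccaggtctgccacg
Vldlr: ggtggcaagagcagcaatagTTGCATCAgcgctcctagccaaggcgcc
Herpud1: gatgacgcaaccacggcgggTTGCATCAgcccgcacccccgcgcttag

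The chaperone genes that held the ER stress response element were Hspa5, at chr2:34771913-34772063 on the plus strand, Hsp90b1, at chr10:86705513-86705676 on the minus strand, and Calr, at chr8:84847055-84847113 on the minus strand. The Hspa5 stretch also holds the cAMP-type element, and the Hsp90b1 stretch holds the ER stress element in both orientations.
Hspa5: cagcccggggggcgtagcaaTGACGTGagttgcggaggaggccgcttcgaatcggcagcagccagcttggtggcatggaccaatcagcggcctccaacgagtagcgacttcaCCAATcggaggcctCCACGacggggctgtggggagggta
Hsp90b1: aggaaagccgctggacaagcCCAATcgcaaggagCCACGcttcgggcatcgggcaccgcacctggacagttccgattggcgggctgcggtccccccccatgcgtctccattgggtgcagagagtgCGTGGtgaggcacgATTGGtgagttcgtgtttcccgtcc
Calr: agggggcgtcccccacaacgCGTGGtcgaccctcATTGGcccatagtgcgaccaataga

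Levels were compared between cell populations for each gene by itself, as mean CPM ± SD over the 4 mice. Because the deposited types were drawn from the same expression values, these levels are described without a test. Malignant cells stood above all non-malignant cells, by at least 2-fold and with no overlap between the 4 mice of each side, for 7 of the 36 genes (Atf5, Phgdh, Psph, Sars, Chac1, Vldlr and Stc2), where 20.3% of the 14445 genes compared did so. They stood below in the same way for 6 genes (Cebpb, Cebpg, Sesn2, Gdf15, Sdf2l1 and Xbp1), where 24% of genes did. Both shares are near or under that of genes in general. Cebpg and Slc3a2 lay at the 2-fold edge, with ratios of non-malignant to malignant cells of 2.03 and 1.999. With CPM of summed UMIs Slc3a2 took the place of Cebpg among the lower genes. Over the 8 populations with enough cells, malignant cells and fibroblasts each had the highest level for 9 of the 36 genes, against 15.02% and 13.1% of all genes. The types deposited as Microglia and Epithelial were highest for 6 and 4 (16.3% and 16.6% of all genes), T cells for 4 (10.1%), macrophages for 3 (8.52%), NK cells for 1 (8.79%) and osteoclasts for 0 (11.6%).

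**Figure D1:**
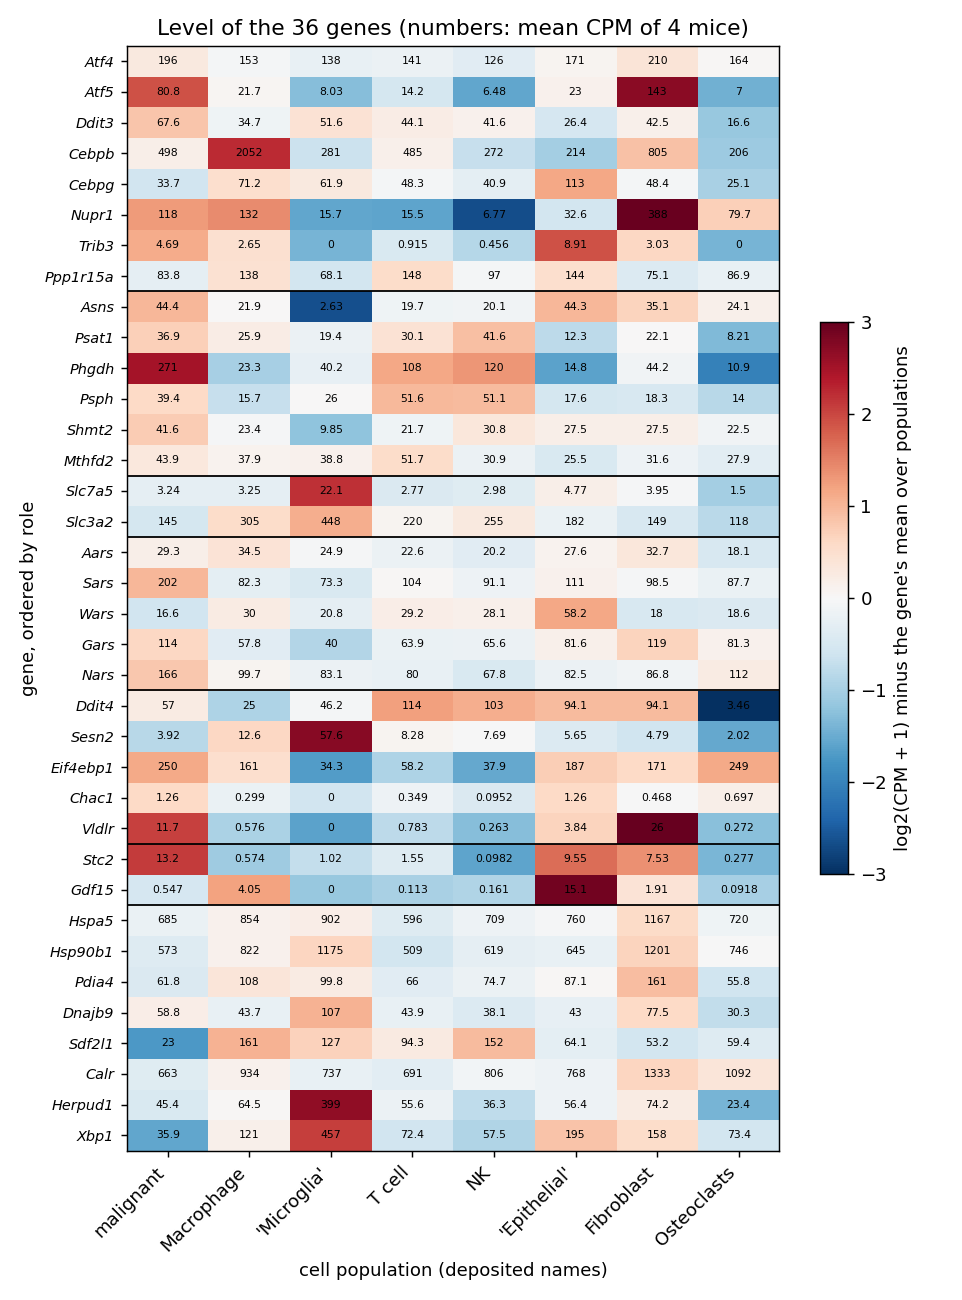
Level of the 36 genes (rows, by role) in the 8 populations with at least 20 cells in every mouse (columns). Printed numbers are mean CPM over 4 mice, and colour is log2(CPM + 1) minus the mean of that gene over the populations, so colour compares populations within a gene only. Phgdh is darkest in malignant cells (271 CPM), Cebpb in macrophages (2052 CPM), and Xbp1 and Herpud1 in the cells deposited as Microglia (457 and 399 CPM).

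Among the transcription factors, Atf4 spanned a narrow range, from 126 ± 6.34 CPM in NK cells to 210 ± 21.01 CPM in fibroblasts, and malignant cells (196 ± 6.10 CPM) overlapped fibroblasts. Atf5, a relative of Atf4 that acts on overlapping targets, was at 143 ± 14.3 CPM in fibroblasts and 80.8 ± 10.8 CPM in malignant cells, which did not overlap each other. It was at or under 23.0 CPM in every other of the 8 populations. Ddit3, which encodes CHOP, a factor that can promote cell death under lasting stress, was at 67.6 ± 9.05 CPM in malignant cells and 16.6 ± 2.65 CPM in osteoclasts. Cebpb, a C/EBP factor prominent in myeloid cells, was at 2052 ± 122 CPM in macrophages, clear of fibroblasts at 805 ± 168 CPM. Nupr1, a stress-inducible chromatin protein, was at 388 ± 87.7 CPM in fibroblasts and 6.77 ± 2.28 CPM in NK cells. Trib3, a pseudokinase that restrains ATF4 signalling, was low in each of the 8 populations. It averaged 4.69 ± 0.282 CPM in malignant cells and was listed with no UMI in the cells deposited as Microglia and in osteoclasts.

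Among the enzymes, Phgdh and Psph were higher in malignant cells, NK cells and T cells than in macrophages. Phgdh, which begins serine synthesis, was at 271 ± 39.9 CPM in malignant cells, 120 ± 14.1 CPM in NK cells and 108 ± 17.6 CPM in T cells. NK and T cells overlapped each other, malignant cells lay above both, and macrophages were at 23.3 ± 6.21 CPM. Psph, the last enzyme of serine synthesis, was at 51.6 ± 14.8 CPM in T cells and 39.4 ± 6.44 CPM in malignant cells, against 15.7 ± 1.28 CPM in macrophages. Shmt2, a mitochondrial serine hydroxymethyltransferase, was at 41.6 ± 5.26 CPM in malignant cells, above NK cells at 30.8 ± 1.85 CPM. Asns, asparagine synthetase, was at 44.4 ± 6.002 CPM in malignant cells and 44.3 ± 8.21 CPM in the cells deposited as Epithelial, and at 2.63 ± 4.14 CPM in those deposited as Microglia.

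Both transporter subunits were highest in the cells deposited as Microglia. Slc7a5, the light chain of a large neutral amino acid transporter, was at 22.1 ± 7.20 CPM there and at or under 4.77 CPM in the rest of the 8 populations. Slc3a2, its heavy chain, was at 448 ± 55.7 CPM there and at 305 ± 29.6 CPM in macrophages. Among the tRNA synthetases, Sars was at 202 ± 3.08 CPM and Nars at 166 ± 18.2 CPM in malignant cells, both clear of the next population. Wars was highest in the cells deposited as Epithelial, at 58.2 ± 22.0 CPM, and lowest in malignant cells, at 16.6 ± 1.87 CPM.

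Stc2, a secreted glycoprotein, was at 13.2 ± 1.33 CPM in malignant cells and 0.574 ± 0.363 CPM in macrophages. Gdf15, a stress-induced cytokine, was at 0.547 ± 0.155 CPM in malignant cells and 4.05 ± 0.411 CPM in macrophages. In the cells deposited as Epithelial Gdf15 rested on 1 mouse, with 52.8 CPM in digoxin replicate 2 and 1.46, 5.26 and 1.03 CPM in vehicle replicates 1 and 2 and digoxin replicate 1. Sesn2, a brake on mTORC1 signalling, was at 57.6 ± 15.9 CPM in the cells deposited as Microglia and 3.92 ± 0.345 CPM in malignant cells. Vldlr, a lipoprotein receptor, was at 26.0 ± 7.71 CPM in fibroblasts and 11.7 ± 1.79 CPM in malignant cells, and under 1 CPM in macrophages, T cells, NK cells and osteoclasts.

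Among the ER genes, Hspa5 varied little between populations, while Xbp1, Herpud1 and Sdf2l1 varied widely. Hspa5, the main ER chaperone, ranged from 596 ± 85.9 CPM in T cells to 1167 ± 503 CPM in fibroblasts, and every neighbouring pair of populations overlapped. Xbp1 was at 457 ± 27.1 CPM in the cells deposited as Microglia, 195 ± 14.2 CPM in those deposited as Epithelial, 121 ± 12.1 CPM in macrophages and 35.9 ± 2.22 CPM in malignant cells, the lowest of the 8. Herpud1, part of ER-associated degradation, was at 399 ± 58.4 CPM in the cells deposited as Microglia and at or under 74.2 CPM in the rest of the 8 populations. Sdf2l1, a cofactor of the Hspa5 chaperone cycle, was at 161 ± 24.4 CPM in macrophages and 23.0 ± 4.62 CPM in malignant cells. Calr, calreticulin, was lowest in malignant cells too, at 663 ± 68.7 CPM, but overlapped T cells at 691 ± 83.2 CPM.

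To ask what digoxin did to these genes in tumor cells, malignant cells of the 2 digoxin mice were compared with those of the 2 vehicle mice. No gene of the list passed the test, and differences were small against the spread between mice. With limma on log2(mean CPM + 1) and Benjamini-Hochberg adjustment, 0 of 36 genes passed an adjusted p of 0.05, as did 0 of 17138 genes in all (0%), and the adjusted p was 1.00 for each of the 36. An unadjusted p under 0.05 was found for 0 of 36, against 3.41% of all genes. edgeR, DESeq2 and limma-voom on summed UMIs each called 0 of the 36 as well, while DESeq2 called 44 other genes. All differences below are on the log2(mean CPM + 1) scale, digoxin minus vehicle, with the standard error of the fit.

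The 6 core genes overlapped between groups. Atf4 was at 205 and 195 CPM with vehicle and 196 and 190 CPM with digoxin, a log2 difference of -0.05 ± 0.07. Ddit3 was at 65.3 and 80.1 CPM with vehicle and 66.7 and 58.4 CPM with digoxin (-0.21 ± 0.12). Asns was at 48.7 and 37.1 CPM with vehicle and 41.9 and 49.9 CPM with digoxin, with the lowest value in vehicle replicate 2. Its difference of 0.10 ± 0.15 became -0.09 without that mouse. Trib3 was at 4.84 and 4.50 CPM with vehicle and 5.01 and 4.41 CPM with digoxin (0.01 ± 0.11), and Xbp1 at 39.0 and 34.3 CPM against 35.9 and 34.3 CPM (-0.06 ± 0.09). Hspa5 was at 712 and 548 CPM with vehicle and 684 and 798 CPM with digoxin (0.24 ± 0.15), again with vehicle replicate 2 lowest. Without that mouse Hspa5 was at 0.05, Ddit3 at -0.06, Xbp1 at -0.15, Atf4 at -0.09 and Trib3 at -0.04.

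Both digoxin mice lay above both vehicle mice for 4 of the 36 genes, where 12.8% of all genes did so, and below for 2, where 16.5% did. The higher genes were Stc2, Eif4ebp1, Herpud1 and Chac1. Stc2 was at 11.3 and 13.3 CPM with vehicle and 14.1 CPM in each digoxin mouse (0.19 ± 0.11, and 0.30 without vehicle replicate 2). Eif4ebp1, an inhibitor of cap-dependent translation that ATF4 induces, was at 241 and 240 CPM against 245 and 273 CPM (0.10 ± 0.08), so the gap rested on digoxin replicate 2. Herpud1 was at 44.4 and 43.1 CPM against 46.6 and 47.6 CPM (0.10 ± 0.07). Chac1, a glutathione-degrading enzyme, stayed between 0.984 and 1.75 CPM. The lower genes were Cebpg, a C/EBP partner of ATF4, at 35.6 and 33.6 CPM with vehicle and 33.4 and 32.1 CPM with digoxin (-0.08 ± 0.08, and -0.12 without vehicle replicate 2), and Dnajb9, an ER co-chaperone, at 59.6 and 59.4 CPM against 58.9 and 57.1 CPM (-0.04 ± 0.07).

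The list as a whole sat slightly to the digoxin side, by an amount that depended on single mice. Its median log2 difference was 0.10 against -0.0058 over all genes, and 25 of 36 genes were positive against 47.2% of all genes. Vehicle replicate 2 was the lowest of the 4 mice for 22 of the 36 genes, as it was for 30.7% of all genes, and digoxin replicate 2 was the highest for 20, as for 26.3%. Without vehicle replicate 2 the median was -0.0019 and 18 of 36 genes were positive, against 45.6% of all genes. It was 0.06 without digoxin replicate 2 (25 positive, against 50.3%), 0.16 without vehicle replicate 1 (25, against 47.4%) and 0.14 without digoxin replicate 1 (22, against 45.2%). Fibroblast marker RNA also moved with the groups in malignant cells, with a sum over 5 markers of 5965 and 6251 CPM with vehicle and 4981 and 4335 CPM with digoxin. Col1a1, Dcn, Col3a1 and Pdgfra averaged 1625, 1726, 1896 and 134 CPM there, against 12335, 3621, 15823 and 360 CPM in fibroblasts. Lum averaged 1.39 CPM in malignant cells and 543 CPM in fibroblasts. The sum over 7 macrophage markers in malignant cells was 547 and 564 CPM with vehicle and 418 and 433 CPM with digoxin. None of these markers was at 0. The median mitochondrial share of UMIs per malignant cell was 5.80% and 5.93% with vehicle and 5.58% and 5.19% with digoxin. Median depth was 57658 and 46799 UMIs per malignant cell with vehicle and 55363 and 56121 with digoxin, so lowest in vehicle replicate 2. The part of these in the result was not tested.

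**Figure D2:**
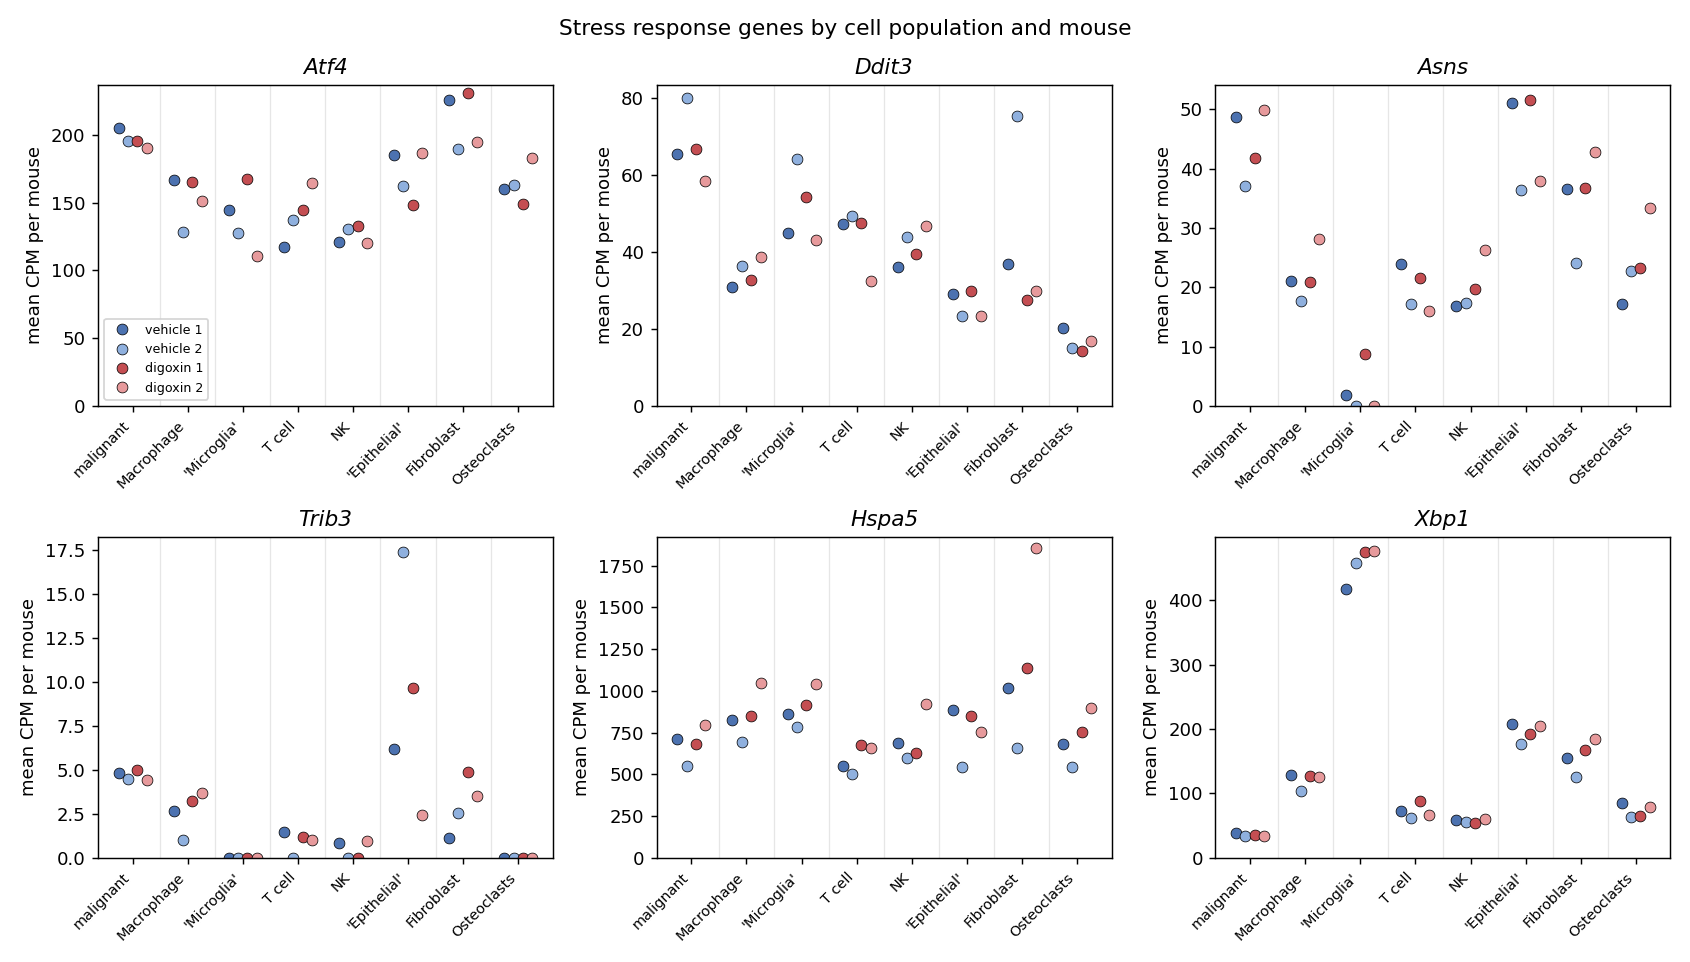
Mean CPM per mouse (points) of Atf4, Ddit3, Asns, Trib3, Hspa5 and Xbp1 in 8 cell populations (x axis), with vehicle mice in blue and digoxin mice in red. Xbp1 ranged from a mean of 35.9 CPM in malignant cells to 457 CPM in the cells deposited as Microglia, while Hspa5 in fibroblasts ranged from 658 to 1856 CPM over the 4 mice.

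Macrophages, 2418 to 2748 cells per mouse, were the largest host population. Here too no gene of the list passed the test (limma, 0 of 36, and 0 of 13734 genes, 0%, with an adjusted p of 1.00 for each of the 36). At an unadjusted p under 0.05 there were 2 (Sesn2 and Trib3), against 4.04% of all genes, and edgeR, DESeq2 and limma-voom called 0 of the 36. Both digoxin mice lay above both vehicle mice for 10 of the 36 genes, where 13.6% of all genes did, and below for 0, where 17.3% did. ER folding genes made up 5 of the 10: Hspa5, Pdia4, Sdf2l1, Calr and Dnajb9. The other 5 were Sesn2, Trib3, Nars, Cebpb and Eif4ebp1.

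Sesn2 had the largest difference among those above 10 CPM, at 11.9 and 9.08 CPM with vehicle and 15.6 and 13.8 CPM with digoxin (0.46 ± 0.17). Trib3 was at 2.66 and 1.02 CPM with vehicle and 3.21 and 3.71 CPM with digoxin (0.71 ± 0.28), from 118, 54, 173 and 204 UMIs. The difference was 0.28 for Trib3 and Sesn2 alike without vehicle replicate 2. The make-up of the macrophages differed between mice: the M1, M2 and Highly proliferative M2 sub-clusters described below held 1095, 948 and 375 cells in vehicle replicate 1, 712, 1511 and 233 in vehicle replicate 2, 1307, 1136 and 305 in digoxin replicate 1 and 1166, 1191 and 384 in digoxin replicate 2. Trib3 was at 1.03 and 0.623 CPM with vehicle and 2.41 and 2.10 CPM with digoxin in M1, and at 1.64 and 0.321 against 1.01 and 1.62 CPM in M2, so the groups overlapped in M2. Hspa5 was at 828 and 695 CPM with vehicle and 847 and 1047 CPM with digoxin (0.31 ± 0.15). Pdia4, a disulfide isomerase, was at 112 and 80.5 CPM against 118 and 122 CPM (0.33 ± 0.17). Vehicle replicate 2 was again the lowest for both genes. Vehicle replicate 1 lay close to both digoxin mice for Pdia4, but close to digoxin replicate 1 only for Hspa5. Leaving out vehicle replicate 2 gave 0.18 for Hspa5 and 0.09 for Pdia4.

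Sdf2l1 was at 161 and 130 CPM with vehicle and 166 and 189 CPM with digoxin (0.29 ± 0.14), and Calr at 912 and 781 CPM against 966 and 1076 CPM (0.27 ± 0.13). These were 0.14 and 0.16 without vehicle replicate 2. Dnajb9 was at 39.3 and 41.6 CPM with vehicle and 47.3 and 46.6 CPM with digoxin (0.21 ± 0.11), with vehicle replicate 1 the lowest. Nars was at 95.2 and 92.8 CPM against 97.5 and 113 CPM (0.16 ± 0.12), and Cebpb at 2010 and 1907 CPM against 2192 and 2099 CPM (0.13 ± 0.11). For Nars, digoxin replicate 1 lay close to the vehicle mice. The other core genes overlapped between groups. Atf4 was at 167 and 128 CPM against 165 and 151 CPM (0.11 ± 0.15), Ddit3 at 31.0 and 36.4 CPM against 32.7 and 38.7 CPM (0.08 ± 0.14), Asns at 21.1 and 17.7 CPM against 20.8 and 28.1 CPM (0.31 ± 0.18) and Xbp1 at 128 and 103 CPM against 128 and 126 CPM (0.14 ± 0.13). The signs for Atf4 and Xbp1 turned without vehicle replicate 2, to -0.08 and -0.02, while Asns was at 0.19. The sign for Ddit3 turned without vehicle replicate 1 (-0.03) and without digoxin replicate 2 (-0.04).

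The median log2 difference of the 36 genes in macrophages was 0.15, against -0.0053 over all genes, and 31 were positive, against 48.5% of all genes. Leaving out vehicle replicate 2 or digoxin replicate 2 lowered the median to 0.08 and 0.07, with 25 positive in each case. Leaving out vehicle replicate 1 or digoxin replicate 1 gave 0.27 and 0.26. Vehicle replicate 2 was lowest for 22 of the 36 genes, against 37.7% of all genes, and digoxin replicate 2 was highest for 23, against 27.4%. The median mitochondrial share per macrophage was 5.195% and 6.44% with vehicle and 4.74% and 4.53% with digoxin, highest in vehicle replicate 2 and lowest in digoxin replicate 2. The sum over 5 neutrophil markers was 57.6 and 45.4 CPM with vehicle and 88.8 and 64.9 CPM with digoxin. The part of either, or of the make-up in sub-clusters, in the result was not tested.

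The deposited annotation splits macrophages into M1, M2 and Highly proliferative M2 sub-clusters, and the last of these held 233 to 384 cells per mouse. For 13 of the 36 genes its lowest mouse lay above the highest mouse of both M1 and M2, where 18.5% of genes did so. For 2 its highest mouse lay below the lowest of both, where 4.14% did, and 21 overlapped. Because the sub-clusters were drawn from expression, these counts are a description. Median depth was 25066 to 28898 UMIs per cell in it, 12918 to 14702 in M1 and 16329.5 to 17650 in M2. Trib3 averaged 11.7 ± 3.98 CPM there, against 1.54 ± 0.852 CPM in M1 and 1.15 ± 0.623 CPM in M2. Mthfd2, a mitochondrial one-carbon enzyme, was at 106 ± 14.5 CPM against 33.6 ± 3.43 and 23.4 ± 4.25 CPM. Psat1, the transaminase of serine synthesis, was at 71.4 ± 13.2 CPM against 14.1 ± 2.64 and 24.3 ± 5.62 CPM, and Asns at 52.8 ± 14.4 CPM against 16.1 ± 2.76 and 18.7 ± 3.27 CPM. Ddit3 was at 62.0 ± 12.6 CPM, against 30.2 ± 4.25 and 31.2 ± 3.42 CPM. Among the other amino acid genes Phgdh, Wars and Slc3a2 overlapped. The 13 also held Atf4, Psph, Shmt2, Slc7a5, Aars, Sars, Gars and Nars, so 4 of the 5 synthetases. The genes below were Dnajb9, at 23.5 ± 5.88 CPM against 43.1 ± 6.90 and 48.9 ± 3.14 CPM, and Xbp1, at 80.4 ± 6.01 CPM against 142 ± 14.2 and 114 ± 9.33 CPM.

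**Figure D3:**
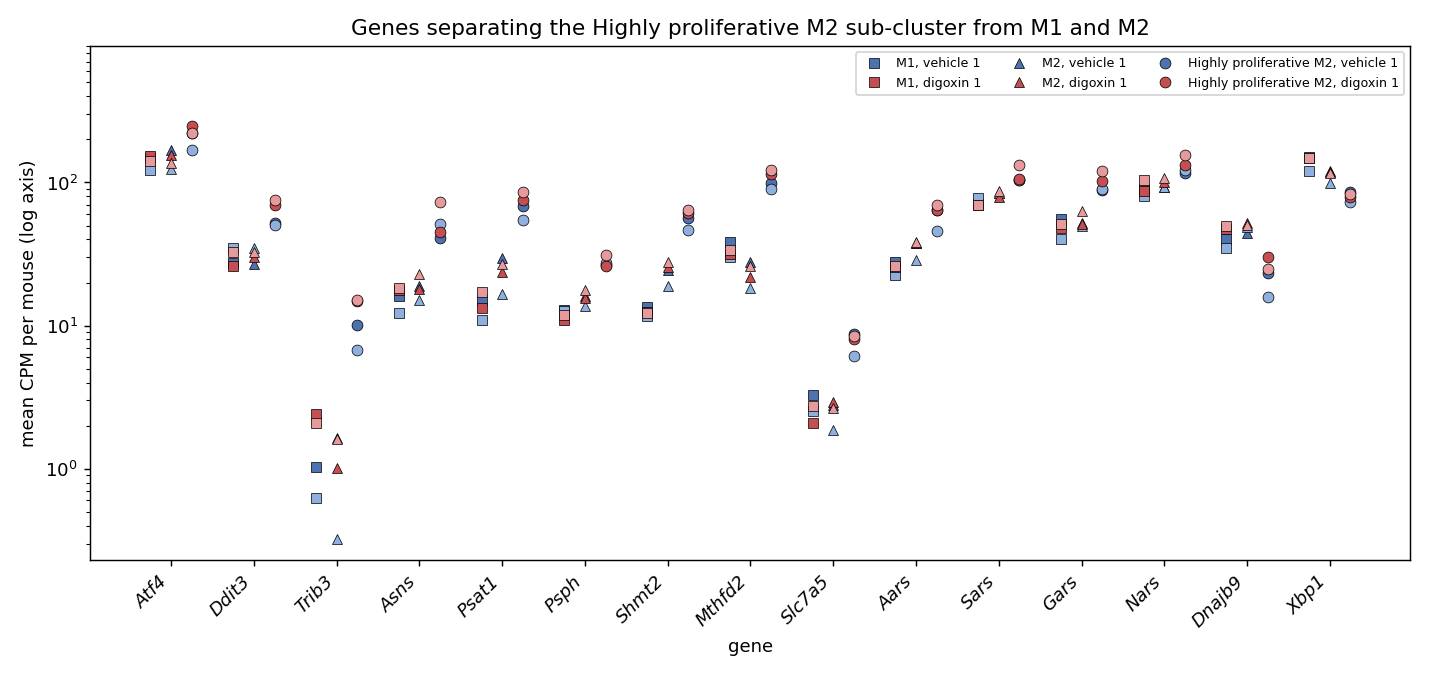
Mean CPM per mouse (log axis) of the 15 genes for which the Highly proliferative M2 sub-cluster (circles) lay outside the range of the 4 mice of both M1 (squares) and M2 (triangles). Blue is vehicle and red is digoxin, with the lighter shade for replicate 2 of each group. Trib3 shows the widest separation (11.7 CPM against 1.54 and 1.15 CPM), and Dnajb9 and Xbp1 are the 2 genes below.

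Within the Highly proliferative M2 sub-cluster, digoxin mice tended to lie above vehicle mice across the list, without a call. limma called 0 of the 34 genes that passed the filter on low counts and 0 of 11459 genes in all (0%), with an adjusted p of 1.00 for each of the 34. At an unadjusted p under 0.05 there were 8 (Atf5, Ddit3, Dnajb9, Gars, Mthfd2, Phgdh, Psat1 and Trib3), against 3.94% of all genes. edgeR, DESeq2 and limma-voom each called 0. The difference was positive for 34 of the 34, against 56.0% of all genes, with a median of 0.25 against 0.02 over all genes. With no filter it was positive for 35 of 36. Both digoxin mice lay above both vehicle mice for 17 of the 34, against 17.4% of all genes, and below for 0, against 12.6%. Vldlr and Stc2 did not pass the filter and stayed at or under 1.18 CPM in every mouse.

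Trib3 was at 10.0 and 6.80 CPM with vehicle and 14.8 and 15.1 CPM with digoxin (0.78 ± 0.21), from 78, 38, 112 and 144 UMIs. Atf5 was at 29.2 and 25.3 CPM against 39.2 and 47.9 CPM (0.65 ± 0.15). Ddit3, at 52.2 and 50.4 CPM against 69.9 and 75.6 CPM (0.49 ± 0.12), and Phgdh, at 33.7 and 30.8 CPM against 42.1 and 53.7 CPM (0.55 ± 0.15), showed vehicle mice close to each other and both digoxin mice above. These differences were 0.53 for Trib3, 0.55 for Atf5, 0.47 for Ddit3 and 0.48 for Phgdh without vehicle replicate 2. Ddit3 and Phgdh were chosen after their values were seen. The remaining core genes were Atf4 (223 and 170 against 250 and 222 CPM), Asns (41.1 and 51.5 against 45.0 and 73.4 CPM), Hspa5 (620 and 516 against 592 and 707 CPM) and Xbp1 (86.4 and 72.7 against 78.9 and 83.6 CPM), and these overlapped between groups.

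Leaving out single mice kept the median positive, at 0.17 without vehicle replicate 2, 0.16 without digoxin replicate 2, 0.32 without vehicle replicate 1 and 0.31 without digoxin replicate 1. The number of positive genes was 27, 29, 33 and 33 of 34 in that order. Without vehicle replicate 1, where the lone vehicle mouse is assumed to vary like the digoxin mice, limma called 4 of the 34 (Atf5, Dnajb9, Gdf15 and Trib3), against 2.33% of all genes. Without vehicle replicate 2 it called 0, so these calls rested on vehicle replicate 2 as the only vehicle mouse. Gdf15 had 1 UMI in that mouse (0.172 CPM) and 56, 49 and 57 UMIs (5.87, 6.02 and 6.41 CPM) in vehicle replicate 1 and digoxin replicates 1 and 2. The sub-cluster held 375 and 233 cells with vehicle and 305 and 384 with digoxin. Its sum over 7 macrophage markers was 13993, 18485, 15160 and 16367 CPM in vehicle replicates 1 and 2 and digoxin replicates 1 and 2. The groups overlapped in that sum. They did not overlap in the median mitochondrial share per cell, which was 5.14% and 5.82% with vehicle and 4.78% and 4.54% with digoxin. Nor did they overlap in median depth, at 27030 and 25066 UMIs per cell with vehicle and 28898 and 27743 with digoxin. The part of any of these in the result was not tested.

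In M1, limma called 0 of 33 and in M2 0 of 35, with 0 of 12182 and 0 of 12545 genes in all (0% each). edgeR, DESeq2 and limma-voom called 0 of them too. An unadjusted p under 0.05 was found for 2 in M1 (Dnajb9 and Trib3, 7.73% of all genes) and 2 in M2 (Sdf2l1 and Sesn2, 2.28%). Digoxin mice lay above vehicle mice without overlap for 9 in M1 (15.3% of all genes) and 10 in M2 (15%), and below for 5 (24%) and 1 (11.7%). Pdia4 in M1 was at 105 and 61.8 CPM with vehicle and 114 and 112 CPM with digoxin (0.48 ± 0.22), and Hspa5 at 895 and 653 against 917 and 1101 CPM (0.39 ± 0.17). In M2, Sesn2 was at 10.7 and 6.36 CPM against 13.6 and 13.3 CPM (0.64 ± 0.24), and Sdf2l1 at 141 and 133 against 160 and 201 CPM (0.38 ± 0.15). In these 4 genes the digoxin mice did not overlap the vehicle mice. Without vehicle replicate 2 the differences were 0.11 for Pdia4 and 0.17 for Hspa5 in M1, and 0.31 for Sesn2 and 0.34 for Sdf2l1 in M2. The median mitochondrial share was 4.23% and 4.63% against 3.94% and 3.74% in M1 and 6.66% and 7.46% against 5.64% and 5.22% in M2. The sum over 5 neutrophil markers was 64.5 and 61.8 against 120 and 89.1 CPM in M1. In M2 that sum overlapped between groups, at 51.7 and 41.6 against 65.3 and 50.3 CPM. The part of either in these differences was not tested. Without vehicle replicate 1, limma called Hsp90b1 and Pdia4 in M1, against 1.72% of all genes.

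**Figure D4:**
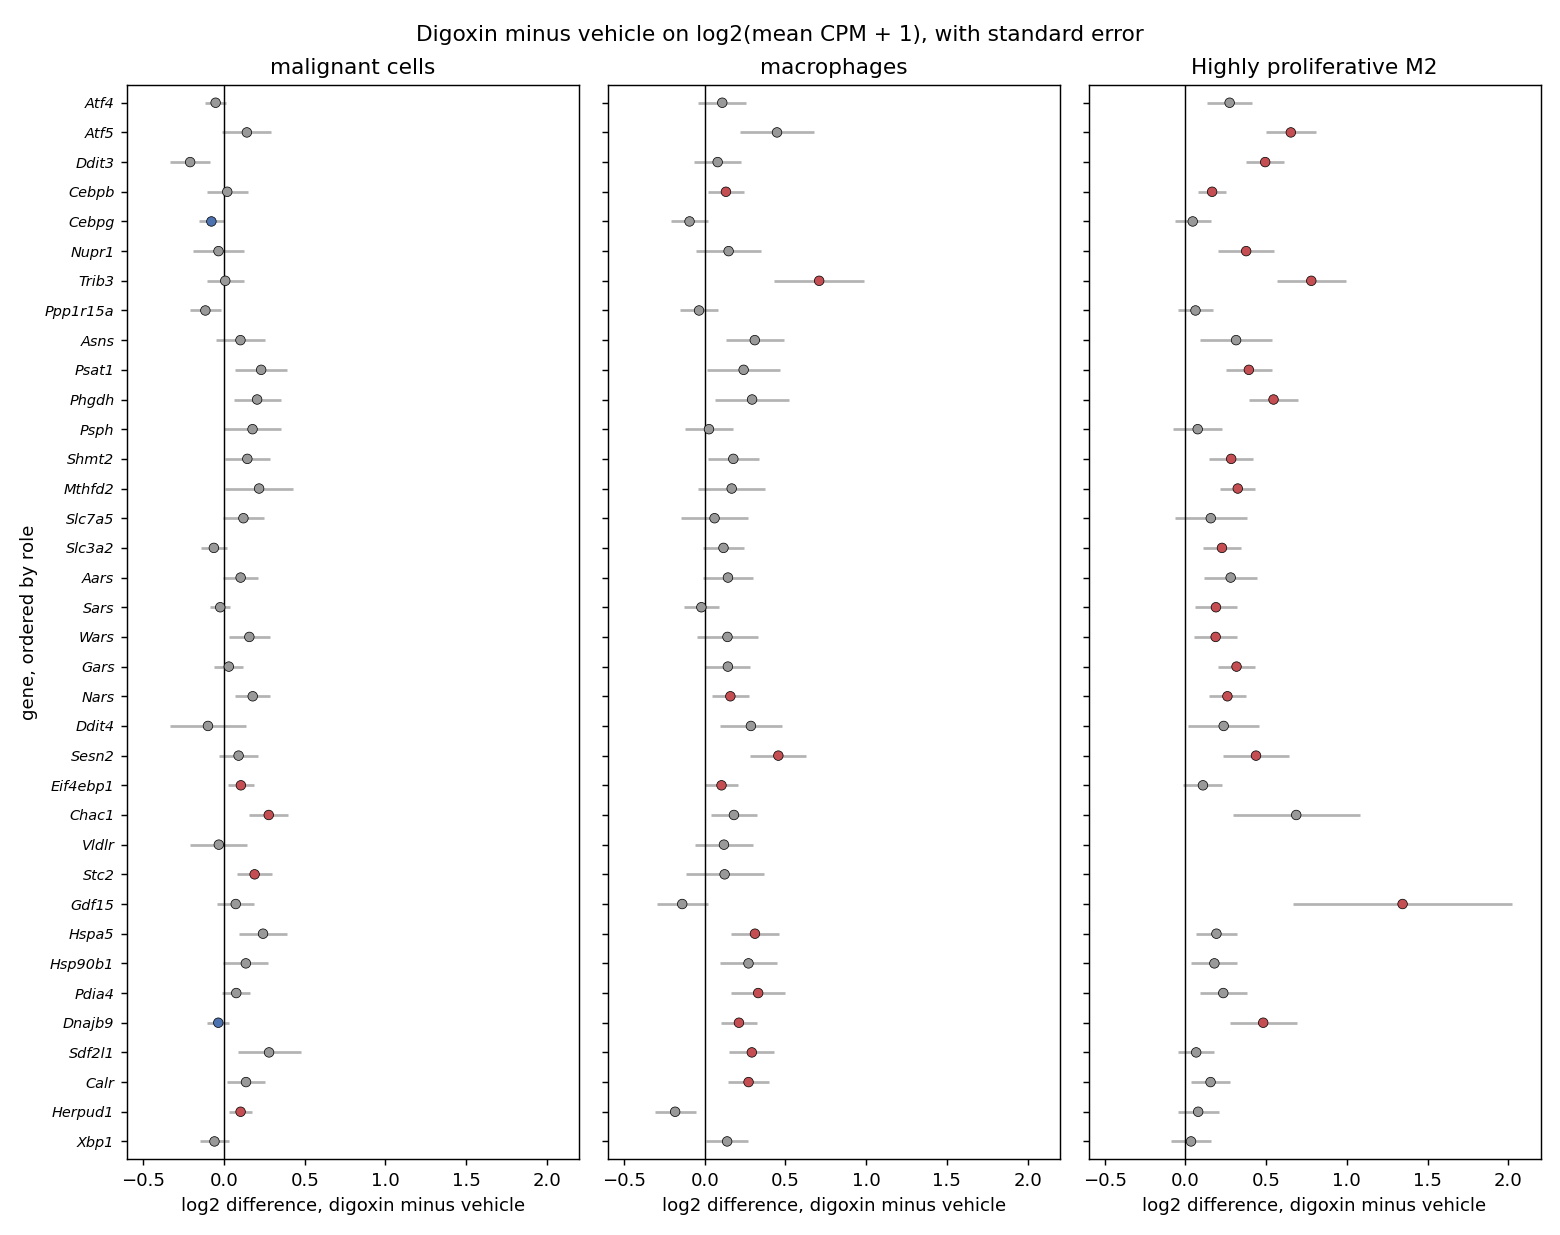
Log2 difference, digoxin minus vehicle, of each gene (rows) on the log2(mean CPM + 1) scale in malignant cells, all macrophages and the Highly proliferative M2 sub-cluster, with bars for the standard error of the limma fit. Red marks genes with both digoxin mice above both vehicle mice (4, 10 and 17 genes), blue those with both below (2, 0 and 0), and grey those that overlap. Vldlr and Stc2 have no point in the right panel because they did not pass the filter.

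In the smaller host populations limma called 0 genes of the list. The tests covered 33 genes in the cells deposited as Epithelial (where 0.467% of 10272 genes were called), 30 in NK cells (0.0765%), 27 in osteoclasts (0.0128%), and 31, 26 and 30 in fibroblasts, the cells deposited as Microglia and T cells (0% each). Unadjusted p-values under 0.05 numbered 4, 1, 5, 4, 3 and 3 in that order, against 5.77%, 6.28%, 6.38%, 2.97%, 4.78% and 4.28% of all genes. edgeR, DESeq2 and limma-voom called 0 members in each.

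In the cells deposited as Epithelial, Cebpb was at 115 and 176 CPM with vehicle and 224 and 340 CPM with digoxin (0.94 ± 0.23, limma adjusted p 0.175). Sdf2l1 was at 61.9 and 32.3 CPM against 86.6 and 75.4 CPM (0.84 ± 0.27, limma adjusted p 0.494). Cebpb was at 1.25 and Sdf2l1 at 0.38 without vehicle replicate 2. These were 2 of 6 genes for which the digoxin mice lay above without overlap (17.8% of all genes), while 1 lay below (Sars, 16.3%). Mast cell marker RNA differed far more in the same cells: the sum of Cpa3, Mcpt4, Cma1 and Kit was 59.4 and 223 CPM with vehicle and 3803 and 3721 CPM with digoxin. Cpa3, Mcpt4 and Cma1 were at 0 in vehicle replicate 1. The sum over 7 macrophage markers was 373 and 759 CPM with vehicle and 924 and 1084 CPM with digoxin, the same order of the 4 mice as for Cebpb, and none of the 7 was at 0. In macrophages that sum was 19332 to 28552 CPM and Cebpb was at 2052 CPM. The part of either cell type in the result was not tested. With the replicate number as a block, Cebpb passed (limma adjusted p 0.0062), where 0.827% of all genes did. Cebpb also passed without vehicle replicate 1, where 4 genes of the list did (Cebpb, Hsp90b1, Hspa5 and Sdf2l1, against 3.35% of all genes), and without vehicle replicate 2, where Cebpb alone did (2.34%). Atf4 (185 and 163 against 148 and 187 CPM), Hspa5 (886 and 547 against 850 and 757 CPM) and Trib3 (6.17 and 17.4 against 9.66 and 2.41 CPM) overlapped between groups.

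In fibroblasts, 31 to 78 cells per mouse, the digoxin mice lay above without overlap for 6 genes (10.1% of all genes) and below for 3 (19.4%). Sdf2l1 was at 46.5 and 18.8 CPM with vehicle and 59.1 and 88.4 CPM with digoxin (1.26 ± 0.42), and Hspa5 at 1016 and 658 against 1135 and 1856 CPM (0.83 ± 0.30). Ddit3 went the other way, at 37.0 and 75.3 CPM against 27.5 and 30.0 CPM (-0.86 ± 0.36). The limma adjusted p was 0.999 for each. The sum over 7 macrophage markers in these cells was 395 and 128 CPM with vehicle and 628 and 572 CPM with digoxin. Median depth was 36748.5 and 18866 UMIs per cell with vehicle and 31632 and 28822 with digoxin. Both were lowest in vehicle replicate 2, as Sdf2l1 was, and the part of either in the result was not tested. Without vehicle replicate 1, leaving the 31 cells of vehicle replicate 2 as the only vehicle cells, limma called 8 genes of the list (Calr, Hsp90b1, Hspa5, Mthfd2, Psat1 and Sdf2l1 higher, Ddit3 and Ddit4 lower), against 4.46% of all genes. Without vehicle replicate 2 it called 0, with differences of 0.62 for Sdf2l1, 0.51 for Hspa5 and -0.35 for Ddit3.

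In T cells the digoxin mice lay below without overlap for 6 of 30 genes, where 19% of all genes did so: Psph, Psat1, Phgdh, Shmt2, Mthfd2 and Herpud1. This count is near the share of all genes. The digoxin mice lay above for 6 others (Atf4, Calr, Eif4ebp1, Hspa5, Nupr1 and Sesn2), where 14.3% did. Psph was at 59.2 and 68.3 CPM with vehicle and 36.5 and 42.2 CPM with digoxin (-0.68 ± 0.22), and Psat1 at 32.2 and 41.1 against 16.6 and 30.4 CPM (-0.67 ± 0.32). For Psat1, digoxin replicate 2 lay close to vehicle replicate 1. Mthfd2 was at 63.2 and 57.5 against 42.9 and 43.2 CPM and Phgdh at 117 and 126 against 86.2 and 101 CPM, both named after their values were seen. The sum over 5 neutrophil markers in T cells was 6.50 and 18.1 CPM with vehicle and 39.1 and 127 CPM with digoxin. Median depth in T cells was 8008 and 8231.5 UMIs per cell with vehicle and 7650 and 7244 with digoxin. The part of either was not tested. In osteoclasts, 28 to 152 cells per mouse, the digoxin mice lay above for 10 of 27 genes, where 21.6% of all genes did, and below for 0, where 15.8% did. Mthfd2 was at 17.4 and 20.9 CPM with vehicle and 38.0 and 35.2 CPM with digoxin (0.90 ± 0.25, limma adjusted p 0.781). Phgdh was at 4.58 and 12.1 against 12.2 and 14.6 CPM (0.75 ± 0.49), from 4, 42, 22 and 13 UMIs, so its lowest value rested on 4 UMIs and vehicle replicate 2 lay close to digoxin replicate 1. The difference for Phgdh was 1.37 without vehicle replicate 2 and 0.13 without vehicle replicate 1. In osteoclasts the median mitochondrial share was 9.48% and 10.8% with vehicle and 7.86% and 7.64% with digoxin. Their median depth was 24700.5 and 22907 UMIs per cell with vehicle and 28744 and 27543.5 with digoxin. The part of share or depth in osteoclasts was not tested.

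Of the remaining genes the rule named, Dnajb9 in the cells deposited as Microglia was at 88.9 and 80.4 CPM with vehicle and 133 and 125 CPM with digoxin (0.60 ± 0.24), while Mthfd2 was at 40.1 and 61.4 against 29.2 and 24.6 CPM (-0.87 ± 0.38), from 25, 21, 21 and 8 UMIs. In NK cells Cebpb was at 277 and 175 CPM against 282 and 353 CPM (0.52 ± 0.18) and Dnajb9 at 29.3 and 36.4 against 40.6 and 46.2 CPM (0.40 ± 0.22). Without vehicle replicate 2, Mthfd2 in the cells deposited as Microglia was at -0.57 and Cebpb in NK cells at 0.19. The sum over 7 macrophage markers in NK cells was 535 and 557 CPM with vehicle and 620 and 978 CPM with digoxin, and its part in the result for Cebpb was not tested. Among the cells deposited as Microglia the digoxin mice lay above for 6 genes (16.7% of all genes) and below for 2 (16.2%), and in NK cells for 6 (19.1%) and 2 (16.9%). The limma adjusted p-values of the genes named here were at or above 0.722. Calls appeared when single mice were left out: Cebpb in the cells deposited as Microglia (1.5% of all genes called) and Cebpb and Ddit4 in NK cells (1.17%) without vehicle replicate 1, and Cebpb and Hspa5 in NK cells without digoxin replicate 1 (0.568%). T cells gave Sdf2l1 without vehicle replicate 1 (2.22%) and Cebpb without vehicle replicate 2 (0.929%).

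A further test asked whether the difference between digoxin and vehicle was itself unequal in malignant and non-malignant cells of the same mice. limma called 0 of 36 genes of the list and 0 of 14445 in all (0%), and the adjusted p was 0.970 to 0.998 over the 36. With all non-malignant cells averaged, the digoxin mice lay above without overlap for 10 of the 36 (12.4% of all genes) and below for 0 (20.6%), and limma called 0 (0 of 14879 genes, 0%), with an unadjusted p under 0.05 for Sesn2 and Trib3 (3.9%). In non-malignant cells the sum over 5 neutrophil markers was 164 and 52.8 CPM with vehicle and 1311 and 237 CPM with digoxin. Their median mitochondrial share was 4.98% and 6.24% against 4.64% and 4.42%. The part of either in these counts was not tested. The smallest unadjusted p of the interaction belonged to Dnajb9. It was at 59.6 and 59.4 CPM with vehicle and 58.9 and 57.1 CPM with digoxin in malignant cells, and at 40.9 and 42.0 against 49.3 and 47.6 CPM in all non-malignant cells. The log2 differences were -0.04 and 0.22, and the difference between them was -0.25 ± 0.08 (limma adjusted p 0.970). Trib3 followed, at 0.01 in malignant and 0.51 in non-malignant cells (-0.04 and 0.28 without vehicle replicate 2).

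The other genes of the pathways gave no call either. limma called 0 of 68 in malignant cells and 0 of 66 in all non-malignant cells. At an unadjusted p under 0.05 there were 1 (Fgf21, with 61 to 145 UMIs per mouse, named after its values were seen) and 6, against 3.41% and 3.9% of all genes, and edgeR, DESeq2 and limma-voom called 0 in either. In malignant cells the digoxin mice lay above without overlap for 2 of the 68 (Cth and Kars), against 12.8% of all genes, and below for 5 (Selenok, Dnajc10, Eif2ak1, Eif2ak3 and Fgf21), against 16.5%. In non-malignant cells they lay above for 11 of the 66, against 12.4% of all genes, and below for 3 (Atf3, Mbtps1 and Nck1), against 20.6%. Cth, which makes cysteine from cystathionine, was at 15.6 and 12.9 CPM with vehicle and 15.7 and 17.1 CPM with digoxin in malignant cells (0.20 ± 0.12, and 0.07 without vehicle replicate 2). Selenok, an ER selenoprotein, was at 240 and 232 against 221 and 208 CPM (-0.13 ± 0.07), and Dnajc10, an ER reductase, at 56.0 and 55.3 against 51.8 and 49.5 CPM (-0.13 ± 0.07). In non-malignant cells Slc7a11, the cystine importer subunit, was at 63.4 and 32.4 CPM with vehicle and 83.7 and 73.3 CPM with digoxin (0.77 ± 0.31), and passed without vehicle replicate 1 (limma adjusted p 0.0422), where 0.464% of all genes did. Without vehicle replicate 2 its difference was 0.30 and did not pass. Ero1l, an ER oxidase, was at 55.3 and 47.4 against 91.8 and 65.3 CPM (0.59 ± 0.18), and Jdp2, a basic leucine zipper repressor, at 84.7 and 98.8 against 116 and 160 CPM (0.57 ± 0.17).

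Within a tumor some groups of the list varied together and others did not. Spearman correlations of CPM across malignant cells were computed within each mouse for the 31 genes with a UMI in at least 20% of cells of every mouse. Trib3, Slc7a5, Sesn2, Chac1 and Gdf15 were left out. These values describe cells that share libraries, and no p is given. The median over 465 pairs was 0.0936, with 50 pairs above 0.3 and 4 below -0.3 in all 4 mice.

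Across malignant cells the amino acid and one-carbon enzymes formed the tightest group, with a median rho of 0.461 to 0.519 over their 15 pairs in the 4 mice. Psat1 with Phgdh had a mean rho of 0.61, Phgdh with Shmt2 0.58 and Asns with Phgdh 0.52. The synthetases followed these enzymes, with a median of 0.305 to 0.368 over 30 pairs, and Eif4ebp1 did so too, at 0.57 with Phgdh. The 3 genes of this group whose printed promoters hold the C/EBP-ATF element (Asns, Aars and Gars) lay among them. Phgdh, Psat1, Shmt2 and Mthfd2 had no match in their windows, and Eif4ebp1, Nars and Wars had no promoter entry. Of the other holders of the element, Nupr1, Vldlr and Herpud1 were at -0.32, -0.20 and -0.10 with Phgdh, and Chac1 was not in the set. The part of the element in these correlations was not tested. The transcription factors correlated with each other at a median of 0.165 to 0.199. With the enzymes their median over 42 pairs was -0.0921 to -0.0288, but single factors lay on either side of 0. Mean rho was negative with all 6 enzymes for Cebpb (-0.48 to -0.11), Ddit3 (-0.25 to -0.04), Nupr1 (-0.32 to -0.01) and Ppp1r15a (-0.26 to -0.06). It was positive with all 6 for Atf4 (0.04 to 0.18) and Cebpg (0.08 to 0.17), and of either sign for Atf5 (-0.04 to 0.21). These signs held only in part elsewhere. After thinning, Nupr1 was positive with 1 enzyme (-0.26 to 0.02), and the other 5 factors of 1 sign kept it with all 6. In malignant cells with no UMI of Mki67 or Top2a, Cebpb (-0.21 to -0.01) and Ppp1r15a (-0.14 to -0.02) were negative with all 6. Ddit3 (-0.04 to 0.07) was then positive with 5 and Nupr1 (-0.07 to 0.11) with 4. Atf5 (0.16 to 0.37), Atf4 (0.07 to 0.17) and Cebpg (0.05 to 0.16) were positive with all 6 in these cells. In macrophages, where 5 enzymes were kept, Ddit3 (0.03 to 0.10) and Nupr1 (0.02 to 0.08) were positive with all 5, Ppp1r15a (-0.03 to 0.03) was of either sign, and Cebpb (-0.15 to -0.04) was negative with all 5. Cebpb was opposed to Phgdh at a mean rho of -0.48 and followed Slc3a2 at 0.44. Among ER genes the median was 0.110 to 0.157, and Hsp90b1 with Calr was at 0.56. Hspa5, the other gene with the ER stress element, was at 0.32 with Hsp90b1 and 0.39 with Calr, and Sdf2l1, with no match in its window, was at 0.33 with Hsp90b1. The part of the ER stress element was not tested either.

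The correlations of the enzymes were smaller after thinning and in subsets of cells. CPM of Phgdh and Psat1 correlated with the UMIs of the cell at a mean rho of 0.57 and 0.55, and Cebpb at -0.42. With cells thinned to 20000 UMIs, and shallower cells left out, the enzyme group was at a mean of 0.29 over the mice, and Psat1 with Phgdh at 0.41. In malignant cells with no UMI of Mki67 or Top2a, genes of proliferating cells, the enzyme group was at 0.35 and Cebpb with Phgdh at -0.21. That choice can also favour cells of low depth, and the part of either was not tested. In macrophages the enzyme group without Asns, 10 pairs in place of 15, was at 0.12, as was the group of ER genes. Hsp90b1 with Calr was at 0.45 after thinning, 0.53 without Mki67 or Top2a and 0.53 in macrophages. Macrophages held a median of 16070 to 17049 UMIs per cell, against 46799 to 57658 in malignant cells. Few UMIs per gene can lower rho by counting noise, in macrophages and after thinning alike. In malignant cells Psat1 averaged 36.9 CPM, against 573 CPM for Hsp90b1 and 663 CPM for Calr. The part of depth in the smaller values was not tested.

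**Figure D5:**
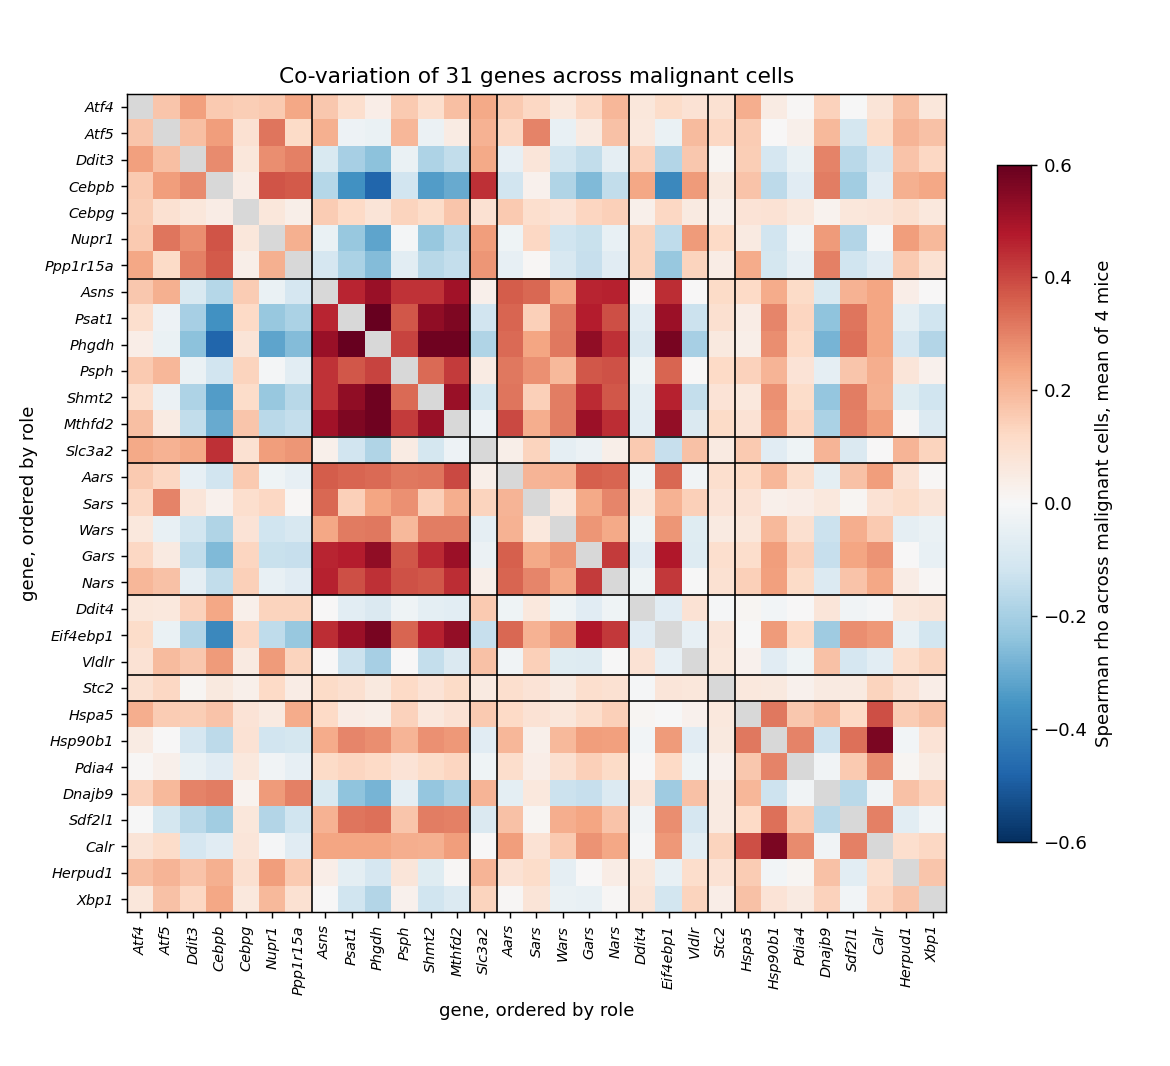
Spearman rho across malignant cells, averaged over the 4 mice, for each pair of 31 genes ordered by role, with black lines between roles. The enzyme block (Asns to Mthfd2) is dark red, with Psat1 and Phgdh at 0.61, and continues into the synthetases and Eif4ebp1, while Cebpb with Phgdh is the darkest blue (-0.48).

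Cells with over 20% mitochondrial UMIs made up 0.925% to 2.57% of malignant cells per mouse (45 to 102 cells) and were most frequent in digoxin replicate 2. For 16 of the 36 genes the highest of the 4 mice in these cells lay below the lowest of the 4 mice in the other malignant cells, where 29.5% of genes did so, and 0 genes lay above in the same way, where 15.9% did. CPM scales by all UMIs of a cell, so a high mitochondrial share by itself lowers the CPM of other genes. The median share was 36.8% to 40.6% in these cells and 5.14% to 5.92% in the other malignant cells. Median depth was 9990.5 to 12647 against 47049 to 58053 UMIs. The part of either in these counts was not tested. Leaving these cells out of the comparison of digoxin with vehicle gave a median difference of 0.10 in malignant cells and 0.15 in macrophages.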

How the data were processed

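The authors deposited a table of malignant and a table of non-malignant cells with cell annotation. Reads were processed with Cell Ranger 3.0.2 and Seurat 3.0.2 on the build mm10, per the submitters' processing notes. Each deposited value is a natural log, ln(1 + UMIs of the gene per 10000 of that cell), in tables that are called counts, and the deposited UMI count per cell returned whole counts (tolerance 0.01) for 100% of values. The cells were dissociated with warm enzymes, per the labels' protocols.

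CPM was computed per cell and averaged per mouse and population (at least 20 cells in every mouse), which makes the mouse the replicate. Genes were kept by filterByExpr on summed UMIs. limma 3.58.1 fitted log2(mean CPM + 1), which understates changes of low genes, with a variance trend and Benjamini-Hochberg adjustment over all genes at 0.05. The design named this test for normalized values, and edgeR 4.0.16, DESeq2 1.42.0 and limma-voom on summed UMIs were alternatives. The comparison of compartments fitted a treatment by compartment term with a fixed effect per mouse. The scripts were tested on simulated data. Other alternatives changed the pseudocount, the filter, the scaling, the cells, the block and the mice. The labels do not say that the mice were handled apart, so p-values measure only the spread between these samples. Scrublet (scanpy 1.11.5) marked 1381 of 31611 cells (4.37%), which were kept. Its share was 5.49% to 8.50% in malignant cells of a mouse and 0.332% to 0.956% in non-malignant ones. Cells were assigned to mice by the deposited treatment and replicate columns. The names of the cells so assigned to vehicle replicate 2 carry another number in their prefix, and the sources used here do not say why. Columns that belong to no sample numbered 0.

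Named genes were Atf4, Ddit3, Asns, Trib3, Hspa5 and Xbp1, then genes past the test, and up to 8 (malignant cells, macrophages) or 2 (other types) with the largest difference among those with a mean of at least 10 CPM and groups that did not overlap. Up to 3 other pathway genes per compartment were named the same way. Types with fewer cells (B cells, dendritic cells, neutrophils, unknown) were not tested. The members and lists were chosen with earlier results of these data known. One further engineered allele of the tumor model is not reported here.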

Additional observations from a re-analysis of the deposited data

Results flagged for a closer look

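Dnajb9 differed in sign between the 2 compartments, though it passed the test in neither: the digoxin mice lay below the vehicle mice, without overlap, in malignant cells (log2 difference -0.0352) and above them in non-malignant cells (0.2192). The difference between these effects had an adjusted p of 0.970 by limma, so the test of the difference did not pass.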

How the results depend on the processing

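Every call on a gene of the list came from leaving out a mouse or from a block. Of 993 values under alternatives, 947 counted as the same. Values of single genes counted so when they kept their direction and their side of the threshold. No named gene was past the threshold in the main fit, so a value could become much smaller and still count as the same. That was so for Hspa5 in malignant cells and Pdia4 in macrophages without vehicle replicate 2. The tally is therefore not a measure of how stable the sizes were. Counts of genes did so when equal or of similar size. Medians of the list did so within the median standard error of its genes, and correlations within the spread between mice. The count of called genes in the list was 0 in malignant cells, all non-malignant cells, macrophages, osteoclasts and the M2 sub-cluster under every alternative run, and 0 for the interaction. Leaving out single mice gave counts of 0 to 4 in the cells deposited as Epithelial, 0 to 8 in fibroblasts, 0 to 1 in the cells deposited as Microglia, 0 to 2 in NK cells, 0 to 4 in the Highly proliferative M2 sub-cluster, 0 to 2 in M1 and 0 to 1 in T cells.

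Same-numbered mice deviated with a correlation of -0.363 in malignant cells, 0.0124 in all non-malignant cells and -0.0400 in macrophages, so the numbers were not taken to pair them. A replicate block gave 1 called gene of the list in the cells deposited as Epithelial (Cebpb, against 0.827% of all genes) and 0 elsewhere. A replicate block with crossed numbers, chosen after seeing the data, gave 0 in malignant cells.

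Of 734 values of single genes, 13 differed in sign. Trib3 in malignant cells was -0.0220 with edgeR, -0.0166 with DESeq2, -0.0206 with limma-voom and -0.0342 with CPM of summed UMIs. Leaving out single mice gave ranges of -0.0892 to 0.294 for Asns, -0.0677 to 0.0837 for Trib3 and -0.149 to 0.0315 for Xbp1 in malignant cells, and of -0.0809 to 0.299 for Atf4, -0.0372 to 0.198 for Ddit3 and -0.0164 to 0.295 for Xbp1 in macrophages.

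Thinning malignant cells to 20000 UMIs, which left out shallower cells (4336, 5811, 3949 and 3657 stayed of 4507, 6269, 4211 and 3976 in vehicle replicates 1 and 2 and digoxin replicates 1 and 2), moved the median rho from 0.495 to 0.294 among enzymes, from 0.346 to 0.192 between enzymes and synthetases, from 0.188 to 0.146 among transcription factors and from 0.138 to 0.0826 among ER genes. Cells with no UMI of Mki67 or Top2a gave 0.345, 0.285, 0.163 and 0.140 in that order, and macrophages, where 26 genes were kept in place of 31, 0.125, 0.105, 0.05999 and 0.121. Both were chosen after seeing the data, and the cause was not tested. Small types are limited by depth, as some values rest on under 10 UMIs.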
